A study of Ovis aries with 18 samples.

Results

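Plasma microRNAs (miRNAs) of ewes fed a high-fat diet were compared with those of ewes fed a standard diet at week 7, the earliest of the sampled weeks. The comparison took, by sample title, the 3 libraries of high-fat plasma (OBESE) and the 3 of standard-diet plasma (CTRL) at week 7, 6 of the 18 libraries of the series. Every ewe was a Polish Longwool female that had been ovariectomized and carried an estradiol implant, so both diets share those treatments, and neither group speaks for cycling animals. The protocols assign 6 ewes to each diet, and the week 7 bleed fell at the midpoint of a 14-week feeding period. RNA came from 200 µL of plasma. The labels give no age and do not tie a library to single or pooled ewes. Every p-value below thus reflects how far libraries of a group scatter, and some of that scatter may be technical. In plasma, a change in the number of cells shedding a miRNA and a change in the amount shed per cell cannot be told apart.

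A miRNA is a short RNA that, loaded into an Argonaute protein, pairs through its seed with messenger RNAs and lowers their translation or stability. miRNAs leave cells in vesicles, in lipoprotein particles and bound to protein, and plasma collects them from blood cells, vessel walls, liver, muscle and fat. Adipose tissue is a known source of circulating miRNAs, and several families described here are studied in fat cell formation and insulin signalling.

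The count table holds 364 features, 107 with a miRNA name and 257 known by a running number alone, called here unnamed miRNA with that number. Of these, 168 had counts high enough to test (54 named, 114 unnamed). Some tested unnamed features had nearly the same counts in every library. Unnamed miRNAs 220, 225 and 238 had identical counts, and several other pairs differed by less than 5%. Each was kept as its own feature, so numbers of features can hold the same signal more than once. The 6 libraries held 412117 to 784830 counts. Levels are CPM, counts per 1000000 of a library size scaled by TMM. TMM centres each library on its typical miRNA, so a library rich in a few miRNAs can reach a summed CPM above the nominal total. A count of 0 allows up to 3 counts, which is 3.82 to 7.28 CPM of the unscaled library total. Such floors cover counting error only.

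CTRL replicate 1 stood apart. Its TMM factor was 0.653, against 0.891 to 1.14 in the other 5 libraries, its 5 most abundant features took 88.0% of its counts, and 46 of the 168 features lay over 1 log2 unit from the mean of the other CTRL libraries. CTRL replicate 3 also had 46 such features, CTRL replicate 2 had 28 and the OBESE libraries 16 to 23. The median SD of log2 CPM was 0.484 among the CTRL libraries and 0.337 among the OBESE libraries. Without replicate 1 the CTRL value was 0.346. That value rests on fewer libraries, which by itself lowers a median SD, so it cannot be set directly beside the others. For the results that moved most without CTRL replicate 1, the value without it is given beside the value over all libraries.

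No miRNA passed the test for diet at week 7. With edgeR's quasi-likelihood test and Benjamini-Hochberg adjustment over the 168 features, 0 of 168 (0%) had an adjusted p under 0.05, and the smallest adjusted p was 0.382. At an unadjusted p under 0.05 there were 9 features (5.36%), where the threshold alone allows 8.4. Of these, 5 (2.98%) were higher and 4 (2.38%) lower in OBESE. DESeq2 tested 363 features, with 0 calls and 15 of them at an unadjusted p under 0.05, and limma-voom tested the same 168, with 0 and 10. The 9 became 17 without CTRL replicate 3, still with 0 calls. The difference was positive for 82 features and negative for 86, with a median log2 fold change of -0.02. Scaling by library totals without TMM moved that median to 0.25 and the split to 118 and 50, with 8 features at an unadjusted p under 0.05 higher and 0 lower, so all directions given here are relative to the typical miRNA.

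The median 95% interval reached 0.925 log2 units (1.90-fold) to either side of its estimate, and 0.654 for the named miRNAs. For 30 of the 54 named miRNAs the whole interval lay within 2-fold in either direction. For all tested features that number was 65 of 168. The intervals of the remaining features reach past 2-fold in at least 1 direction, and a missed threshold does not show equal levels.

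**Figure D1:**
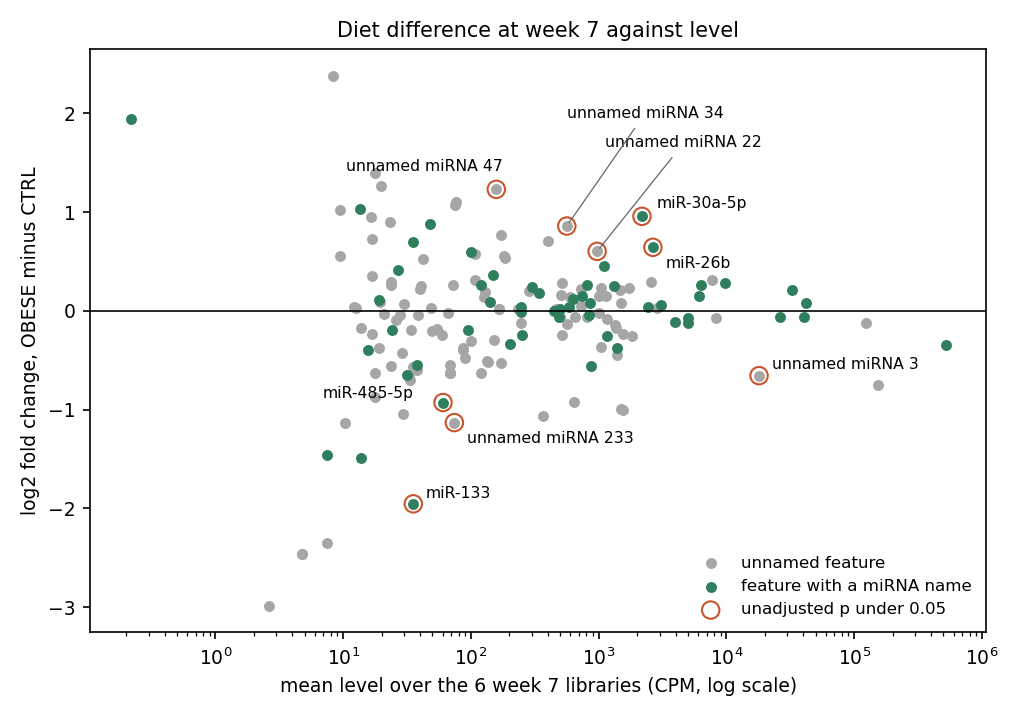
Log2 fold change at week 7 (OBESE minus CTRL, vertical axis) against the mean CPM of the 6 libraries (log scale) for the 168 tested features, green where the feature has a miRNA name; rings mark the 9 with an unadjusted edgeR p under 0.05. The spread narrows as the level rises, and the ringed features lie on both sides of 0, from -1.95 for miR-133 to 1.23 for unnamed miRNA 47.

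The clearest separation among named miRNAs was in miR-30a-5p, a guide strand of the miR-30 family, which is studied in fat cell differentiation. It stood at 1142, 1613 and 1694 CPM in CTRL replicates 1 to 3 and at 2616, 3580 and 2444 CPM in OBESE replicates 1 to 3. Every OBESE library lay above every CTRL library. Its means were 2880 ± 612 CPM in OBESE and 1483 ± 298 CPM in CTRL (SD, n = 3 each), and its log2 fold change was 0.96 (SE 0.304, 95% interval 0.32 to 1.60; edgeR unadjusted p = 0.00582, adjusted p = 0.382). Leaving out any 1 of the 6 libraries kept it between 0.79 and 1.06, and it was 1.18 without TMM.

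The rest of the miR-30 family showed smaller differences. miR-30d, the most abundant member, stood at 6887, 7862 and 11662 CPM in CTRL and 9553, 13107 and 9506 CPM in OBESE, overlapping, with a log2 fold change of 0.28 (SE 0.266), and 0.14 without CTRL replicate 1 or 0.54 without CTRL replicate 3. miR-30a-3p, made from the opposite arm of the precursor that yields miR-30a-5p, stood at 266, 225 and 329 CPM in CTRL and 321, 341 and 309 CPM in OBESE (0.24, SE 0.241). miR-30b lay far lower, at 27.8, 15.7 and 37.1 CPM in CTRL and 34.2, 54.6 and 41.5 CPM in OBESE (0.70, SE 0.509). Of the 5 tested members 4 were positive and 1, miR-30c, was negative, with a median of 0.28. Without TMM all 5 were positive with a median of 0.49, and without CTRL replicate 1 all 5 were positive with a median of 0.23.

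The ratio of miR-30a-5p to related miRNAs does not depend on library scaling, and was examined after the levels had been seen. The ratio of miR-30a-5p to miR-30a-3p was 4.29, 7.17 and 5.15 in CTRL and 8.16, 10.5 and 7.91 in OBESE libraries, a log2 difference of 0.70 with no overlap. To miR-30d it was 0.166, 0.205 and 0.145 in CTRL and 0.274, 0.273 and 0.257 in OBESE libraries, a log2 difference of 0.65, again with no overlap. A two-sided exact permutation test gave p = 0.1 for each, the lowest that 3 libraries against 3 can give. How reads matching several miR-30 members were assigned is not given in the sources used here, and its part in these ratios was not tested.

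The miRNAs studied in fat tissue, insulin signalling and lipid handling were described as a list with 12 tested members. Of these, 9 had positive and 3 negative log2 fold changes, from -0.56 to 0.96, with a median of 0.21 beside -0.02 over all features and 0.04 over the named ones. Without TMM 11 were positive and the median was 0.45. Leaving out CTRL replicate 1 again gave a split of 9 and 3, but not with the same members. The summed level of the 12 was 16363, 15023 and 17858 CPM in CTRL and 19578, 18961 and 18524 CPM in OBESE libraries, which did not overlap. Most of the difference between the mean sums came from miR-30a-5p and miR-26b, so the sum does not show a shift across the list. Without TMM the sums overlapped, since CTRL replicate 3 (18694 CPM) exceeded OBESE replicate 3 (16502 CPM). None of the 12 passed.

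Within that list miR-26b, which is studied in fat cell differentiation and shares its seed with miR-26a, came after miR-30a-5p. It stood at 1737, 1669 and 2819 CPM in CTRL and at 2598, 3446 and 3676 CPM in OBESE libraries, where CTRL replicate 3 exceeded OBESE replicate 1. The log2 fold change was 0.64 (SE 0.276; edgeR unadjusted p = 0.0324, adjusted p = 0.759), and its unadjusted p reached 0.122 with 1 library left out. miR-26a stood at 1110, 1116 and 1384 CPM in CTRL and 1111, 1315 and 1882 CPM in OBESE (0.26, SE 0.228), a value of 0.012 without OBESE replicate 3. The ratio of miR-26b to miR-26a, also examined after the levels were seen, was 1.57, 1.50 and 2.04 in CTRL and 2.34, 2.62 and 1.95 in OBESE libraries, overlapping (two-sided exact permutation p = 0.2).

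miR-103 and miR-107, near-identical miRNAs known to regulate insulin sensitivity, lay on the negative side over all libraries. miR-107 stood at 1506, 964 and 624 CPM in CTRL and at 886, 461 and 752 CPM in OBESE libraries, a log2 fold change of -0.56 (SE 0.371) that was -0.18 without CTRL replicate 1. miR-103 stood at 1728, 1229 and 848 CPM in CTRL and at 1166, 710 and 1313 CPM in OBESE libraries. Both overlapped between the diets and both were highest in CTRL replicate 1. Without that library the miR-103 difference was no longer negative. Reads of these miRNAs can be hard to assign to one or the other.

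Among miRNAs of immune signalling, 3 were tested. Of the 8 names on that list, 5 matched no feature, among them miR-146a, miR-155 and miR-223. miR-21, which is induced in inflammation and abundant in platelets, stood at 732, 896 and 1147 CPM in CTRL and at 1428, 1287 and 1086 CPM in OBESE libraries, a log2 fold change of 0.45 (SE 0.255; edgeR unadjusted p = 0.0934, adjusted p = 0.766). miR-221, known from vessel walls, and miR-125b completed the list, at 298 to 350 CPM and 181 to 317 CPM in CTRL and 312 to 419 CPM and 187 to 348 CPM in OBESE. Of the 3, 2 were positive and 1 was negative, and all 3 were positive without TMM or without CTRL replicate 1. They summed to 1399 to 1637 CPM in CTRL and 1745 to 1966 CPM in OBESE libraries, without overlap. Most of the difference between the mean sums came from miR-21, and without TMM the sums overlapped. miR-143 of vascular smooth muscle stood at 3766, 2117 and 3127 CPM in CTRL and 4126, 2408 and 2881 CPM in OBESE libraries, with overlap.

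**Figure D2:**
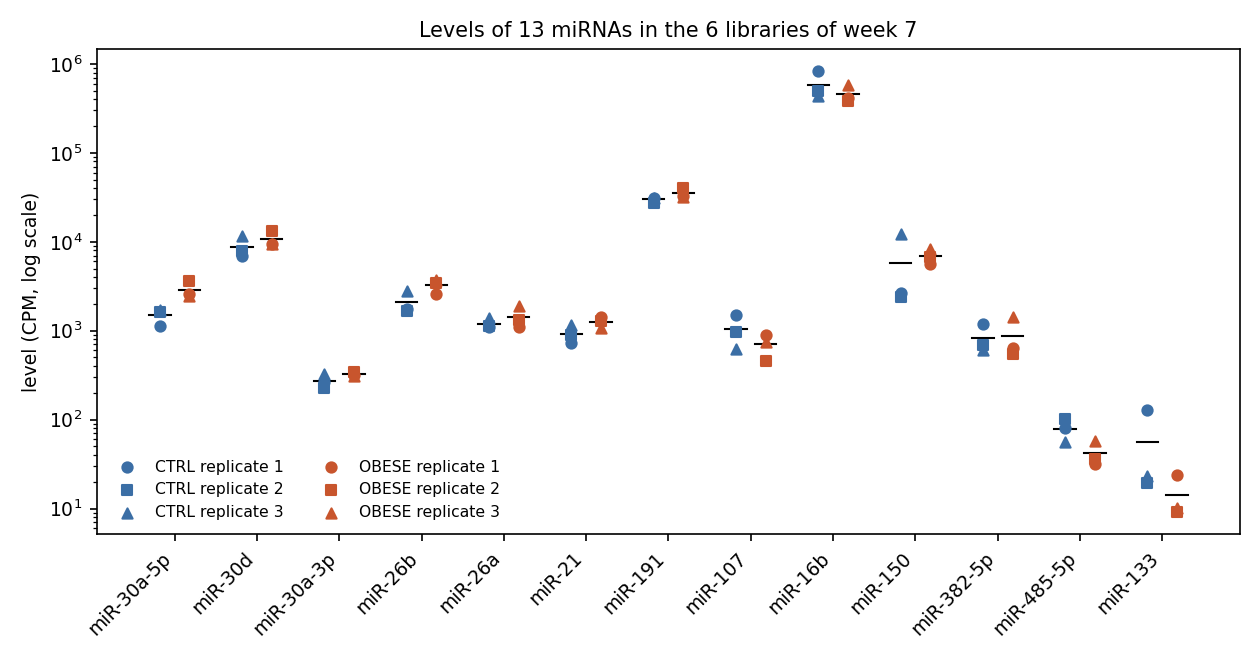
Levels of 13 named miRNAs in CPM (log scale) in the 3 CTRL (blue) and 3 OBESE (orange) libraries of week 7; the marker shape gives the replicate number and the black line the group mean. Of these, miR-30a-5p and miR-191 separate the diets, while CTRL replicate 1 is the highest library for miR-16b, miR-107 and miR-133.

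The let-7 miRNAs, which share 1 seed and restrain growth and glucose uptake, formed an even group. Its 7 members summed to 127817, 112301 and 142341 CPM in CTRL and to 125225, 116383 and 139295 CPM in OBESE libraries. Individual log2 fold changes lay between -0.12 for let-7i (SE 0.165) and 0.15 for let-7f (SE 0.165). Of the 7, 3 were positive and 4 negative with a median of -0.06, but all 7 were positive without TMM, and 5 were positive without CTRL replicate 1. miR-125b, miR-99a and both miR-10 members, a family linked to the HOX clusters, spanned -0.04 to 0.04, with 2 positive and 2 negative (all 4 positive without TMM). The miR-23/27/24 clusters, known from vascular and fat cell biology, gave 2 positive and 1 negative with a median of 0.15 (3 positive without TMM, and a median of 0.03 without CTRL replicate 1).

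The miR-17/92 and paralog clusters promote growth and cell division. miR-17-5p overlapped between the diets, at 651, 497 and 580 CPM in CTRL and 589, 576 and 611 CPM in OBESE libraries (log2 fold change 0.04, SE 0.260, and -0.06 without CTRL replicate 2). miR-25 stood at 2516, 1226 and 992 CPM in CTRL and 1111, 1025 and 1519 CPM in OBESE libraries. Its log2 fold change of -0.37 (SE 0.304) became 0.14 without CTRL replicate 1, the only library above 1519 CPM. miR-106b, from the cluster that also encodes miR-25, had -0.34 (SE 0.332), and -0.13 without that library. Of these 3 tested members 1 was positive and 2 were negative, with a median of -0.34, and 2 were positive without CTRL replicate 1.

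Members of the imprinted DLK1-DIO3 locus, a large miRNA cluster expressed from the maternal chromosome and the site of the callipyge muscle trait of sheep, overlapped widely between the diets. Of 59 named features, which match 43 RefSeq genes on 1 chromosome of the sheep assembly ARS-UI_Ramb_v3.0, 14 had enough counts to test and 14 others had no count in any week 7 library. Among the tested, 7 were positive and 7 negative, from -1.49 to 1.94, with a median of 0.04 (8 positive and 0.35 without TMM, 11 positive and 0.42 without CTRL replicate 1). The positive extreme is miR-3957-5p, which had a single count, in OBESE replicate 1, and 0 in the other 5 libraries. Their summed level was 2821, 1442 and 1103 CPM in CTRL and 1337, 1266 and 2919 CPM in OBESE libraries, so 1 library of each diet held about the same high amount.

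That pattern recurred in single members. CTRL replicate 1 was the highest of the 6 libraries for 6 of the 14 and OBESE replicate 3 for 5. miR-432 stood at 910, 300 and 139 CPM in CTRL and at 321, 265 and 761 CPM in OBESE libraries. miR-382-5p stood at 1195, 682 and 600 CPM in CTRL and at 635, 553 and 1425 CPM in OBESE libraries. These miRNAs were picked after their values had been seen. The members too low to test summed to 51, 18 and 23 counts in CTRL and to 26, 68 and 121 counts in OBESE libraries.

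miR-485-5p was the member with an unadjusted p under 0.05. It stood at 81.1, 101 and 55.6 CPM in CTRL and at 31.6, 36.4 and 57.2 CPM in OBESE libraries, where OBESE replicate 3 exceeded CTRL replicate 3. The log2 fold change was -0.93 (SE 0.418; edgeR unadjusted p = 0.0402, adjusted p = 0.759). miR-323c had the opposite sign, at 60.2, 27.9 and 13.9 CPM in CTRL and 40.8, 57.6 and 88.7 CPM in OBESE (0.88, SE 0.603; 1.55 without CTRL replicate 1). miR-323a-3p stood at 51.0, 10.5 and 0 CPM in CTRL and 5.26, 4.55 and 11.4 CPM in OBESE libraries. Its log2 fold change of -1.49 (SE 0.960) became 0.32 without CTRL replicate 1.

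**Figure D3:**
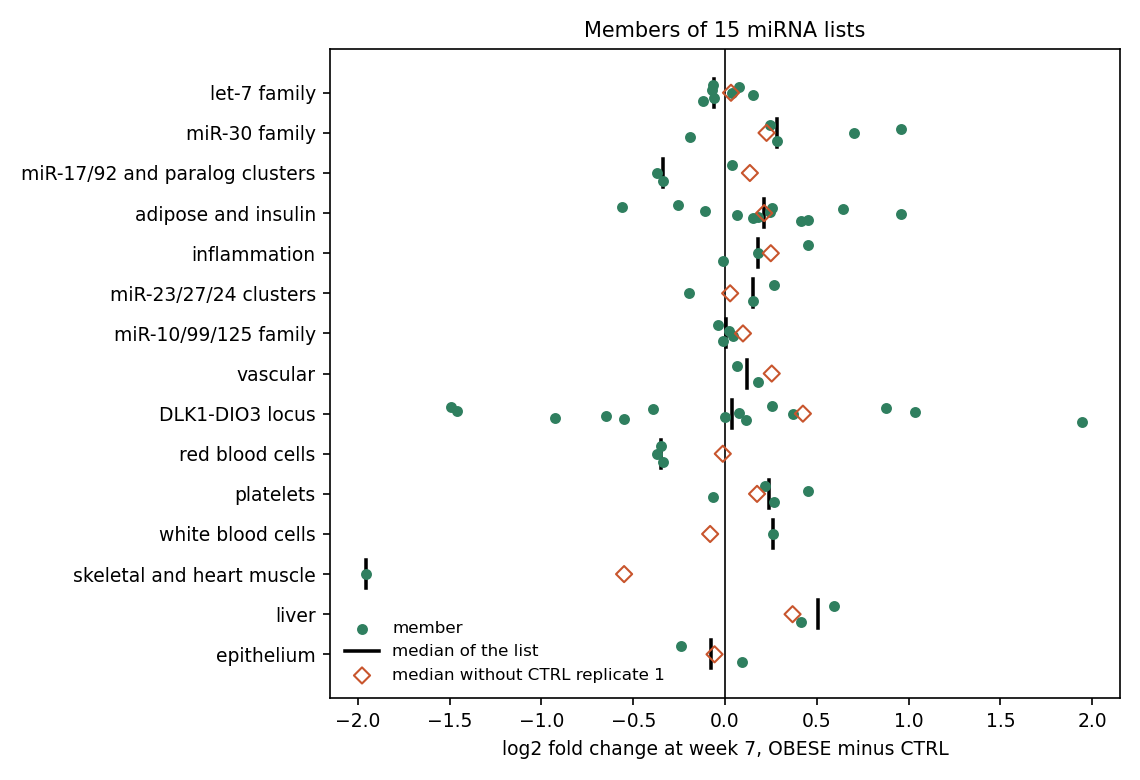
Log2 fold changes at week 7 (OBESE minus CTRL) of the tested members of 15 miRNA lists, with the median of each list (black line) and the median without CTRL replicate 1 (open diamond). The list medians lie between -0.35 and 0.50 apart from muscle (miR-133, -1.95), the DLK1-DIO3 members spread from -1.49 to 1.94, and the red blood cell median goes from -0.35 to -0.01 without that library.

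Markers of the cells that feed plasma were read beside these values. Many listed markers matched no feature name, among them miR-223 and miR-126 for platelets and miR-142 and miR-155 for white blood cells. This also held for miR-1 and miR-206 of muscle. Red blood cells were represented by miR-16b, miR-25 and miR-106b, while no feature carried the name of their defining miRNAs miR-451, miR-486 or miR-144. miR-16b, which belongs to the miR-15/16 group of cell cycle regulators, took 53.9%, 46.5% and 45.1% of the counts in CTRL and 45.6%, 43.6% and 51.4% in OBESE libraries (two-sided exact permutation p = 0.6). On the TMM scale it stood at 826077, 492015 and 430997 CPM in CTRL and at 413567, 382162 and 577118 CPM in OBESE libraries, a log2 fold change of -0.35 (SE 0.258) that was -0.01 without CTRL replicate 1. The 3 members were all negative with a median of -0.35, and 1 of 3 was positive without that library. Their summed level, nearly all of it miR-16b, was 432145 to 828880 CPM in CTRL and 383361 to 578808 CPM in OBESE libraries. Its part in the diet values was not tested.

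Platelet miRNAs were represented by miR-191, miR-21, miR-199a-3p and miR-23a. miR-191, the other named miRNA besides miR-30a-5p whose groups did not overlap, stood at 31303, 27491 and 31388 CPM in CTRL and at 32521, 40423 and 31734 CPM in OBESE libraries. The gap between the nearest libraries of the 2 diets was small, and its log2 fold change was 0.22 (SE 0.224; edgeR adjusted p = 0.786). Without TMM its groups overlapped. Of the 4 platelet miRNAs 3 were positive and 1 negative with a median of 0.24 (4 positive without TMM or without CTRL replicate 1). They summed to 29513 to 33957 CPM in CTRL and 34033 to 43041 CPM in OBESE libraries, without overlap. In every library miR-191 alone made up most of that sum, so the sum largely repeats its values. Without TMM the sums overlapped, with CTRL replicate 3 (35546 CPM) above OBESE replicate 3 (30317 CPM), and the part of platelet RNA in the values of miR-21 and miR-30a-5p was not tested.

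White blood cells were represented by miR-150, a lymphocyte miRNA, at 2675, 2363 and 12151 CPM in CTRL and 5558, 6721 and 8296 CPM in OBESE libraries. CTRL replicate 3 was the highest of the 6 and the other CTRL libraries the lowest, and the log2 fold change of 0.26 (SE 0.557) became -0.08 without CTRL replicate 1 and 1.44 without CTRL replicate 3. Liver was represented by miR-194 and miR-148a, since no feature was named miR-122, miR-192 or miR-885. miR-194 stood at 109, 29.6 and 102 CPM in CTRL and at 104, 135 and 122 CPM in OBESE libraries (0.59, SE 0.462), with CTRL replicate 2 lowest, and its log2 fold change was 0.19 without that library. miR-148a stood at 0, 38.4 and 30.1 CPM in CTRL and 30.2, 21.2 and 41.5 CPM in OBESE libraries. Summed, the liver pair stood at 68.0 to 132 CPM in CTRL and 134 to 163 CPM in OBESE libraries, without overlap, also without TMM. The gap between the nearest libraries was small, and each member alone overlapped between the diets. Both members were positive, and 1 of the 2 was without CTRL replicate 1. The part of the pair in the other values was not tested.

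Muscle was represented by miR-133, a miRNA of skeletal and heart muscle, at 127, 19.2 and 23.2 CPM in CTRL and 23.7, 9.10 and 10.0 CPM in OBESE libraries. Its log2 fold change of -1.95 (SE 0.883; edgeR unadjusted p = 0.0407, adjusted p = 0.759) rested on CTRL replicate 1 and was -0.55 without it. Of the epithelial miRNAs, miR-200a stood at 338, 234 and 250 CPM in CTRL and 250, 221 and 223 CPM in OBESE libraries, and miR-200c ranged from 107 to 185 CPM in CTRL libraries and lay within that range in OBESE libraries. Both overlapped between the diets.

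Groups that did not overlap were counted over all features. For 15 of 168 features (8.93%) the 3 OBESE libraries lay all above (10) or all below (5) the 3 CTRL libraries, and 2 of the 15 had a miRNA name. Diet labels set at random would fully separate 3 libraries from 3 with a probability of 0.1, and 8.93% lies below that. Separation of a single feature therefore does not by itself show a diet difference. Without TMM 19 features did not overlap, 17 higher and 2 lower, and 9 of the 15 (8 higher, 1 lower) were among them. Unnamed miRNA 3 was the most abundant of them, at 18343, 25119 and 22640 CPM in CTRL and 17285, 12542 and 12106 CPM in OBESE libraries. Its log2 fold change was -0.66 (SE 0.218; edgeR unadjusted p = 0.00784, adjusted p = 0.382). Without TMM its groups overlapped and the log2 fold change was -0.43 (edgeR unadjusted p = 0.166). Unnamed miRNA 47 stood at 55.6, 120 and 107 CPM in CTRL and 273, 258 and 134 CPM in OBESE libraries, with 1.23 (SE 0.391; edgeR unadjusted p = 0.00584, adjusted p = 0.382). With any 1 library left out and TMM kept, both stayed under an unadjusted p of 0.05, with 0.0486 as the highest.

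Unnamed miRNAs 22, 34 and 233 also separated, with and without TMM. Unnamed miRNA 22 stood at 642, 821 and 855 CPM in CTRL and 1170, 1113 and 1237 CPM in OBESE libraries (log2 fold change 0.60, SE 0.217). Unnamed miRNA 34 stood at 308, 415 and 478 CPM in CTRL and 640, 893 and 645 CPM in OBESE (0.86, SE 0.323). Unnamed miRNA 233 stood at 130, 83.7 and 92.7 CPM in CTRL and 48.6, 59.1 and 31.5 CPM in OBESE (-1.13, SE 0.385). None passed (edgeR adjusted p = 0.435, 0.461 and 0.382). Near the counting floor, unnamed miRNA 91 stood at 0, 6.97 and 0 CPM in CTRL and 17.1, 10.6 and 15.7 CPM in OBESE, and unnamed miRNA 72 at 13.9, 0 and 16.2 CPM in CTRL and 25.0, 28.8 and 22.9 CPM in OBESE. Unnamed miRNA 81 stood at 18.5, 13.9 and 16.2 CPM in CTRL and 30.2, 33.4 and 27.2 CPM in OBESE libraries. Unnamed miRNA 17, singled out after its values were seen, also separated, with a log2 fold change of -0.23 that was 0.04 without TMM. In contrast, unnamed miRNA 1, the second most abundant feature, overlapped at 332261, 169261 and 77962 CPM in CTRL and 106190, 99208 and 138221 CPM in OBESE libraries, and its -0.75 (SE 0.413) was -0.11 without CTRL replicate 1.

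More features, named and unnamed together, were detected in the OBESE libraries. At least 1 count was found for 235, 243 and 222 features in CTRL and for 257, 258 and 266 in OBESE libraries, without overlap (two-sided exact permutation p = 0.1, the lowest possible here, and 0.25 adjusted over 5 library measures). Features with a miRNA name alone overlapped, at 75, 66 and 60 in CTRL and 71, 75 and 85 in OBESE libraries (two-sided exact permutation p = 0.3). Total counts overlapped between the diets, with means of 560311 ± 131159 in CTRL and 684436 ± 103449 in OBESE (SD, n = 3 each; exact permutation p = 0.4). At an equal depth of 412117 counts, the smallest total of the 6, the expected numbers were 222.7, 234.3 and 222 in CTRL and 244.9, 251.1 and 247.1 in OBESE libraries, which still did not overlap (exact permutation p = 0.1). Features with at least 10 counts numbered 145, 147 and 129 in CTRL and 159, 149 and 153 in OBESE libraries, but at equal depth 126.3, 136.8 and 129 overlapped with 136.9, 141.3 and 130.3 (exact permutation p = 0.2).

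Later weeks did not show that separation. At the smallest total of the series, 388574 counts, the CTRL libraries of week 7 held 220.9 to 232.7 detected features and the OBESE libraries 243.2 to 249.7. At week 10 they numbered 235.5 to 250.0 and 237.4 to 258.3, and at week 14 230.4 to 246.0 and 238.6 to 254.6. The week 7 CTRL libraries included the 2 lowest of the series on this measure, and whether the difference itself differs between weeks was not tested.

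**Figure D4:**
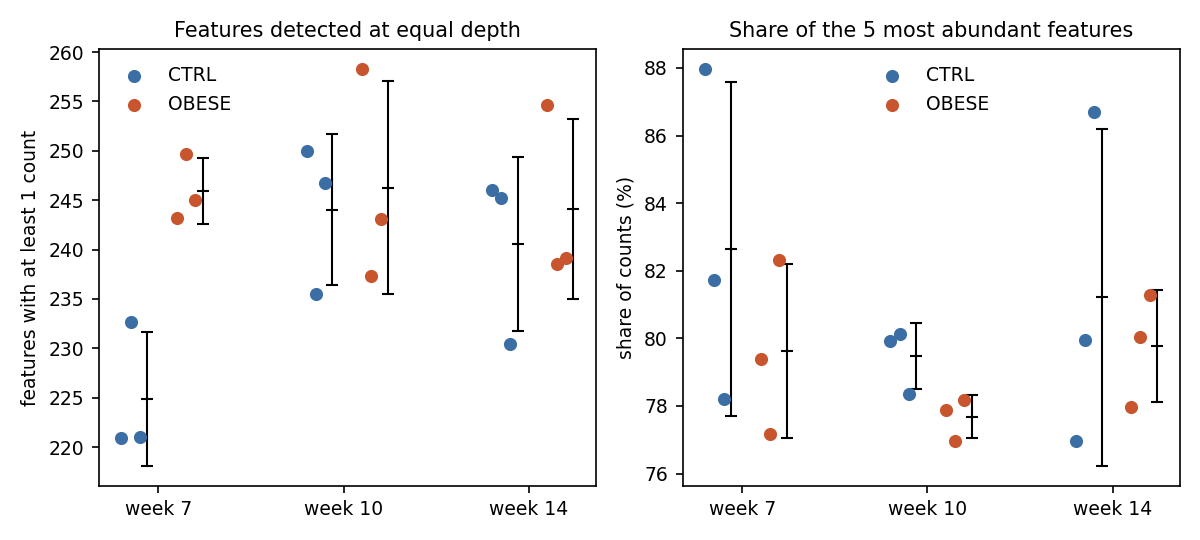
Features with at least 1 count at the equal depth of 388574 counts (left) and the percent of counts taken by the 5 most abundant features (right), for each CTRL and OBESE library at weeks 7, 10 and 14, with the mean and SD (n = 3). On the left the diets are separate at week 7 and overlap at weeks 10 and 14; on the right CTRL replicate 1 of week 7 is the highest point, at 88.0%.

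Whether the week 7 difference was its own was tested against the mean of the diet differences at weeks 10 and 14, in the same edgeR model. None of the 168 features passed (edgeR, smallest adjusted p = 0.502), and 15 (8.93%) had an unadjusted p under 0.05. DESeq2, on 363 features, gave 0 calls and 19 at that level, and limma-voom, on the same 168, gave 0 and 14. The 15 became 4 without OBESE replicate 2 of week 7 and 8 without CTRL replicate 1 of week 7. Libraries of a diet at different weeks may share ewes, which the labels do not settle. Those of the same diet and number correlated over 0.1, in their deviations from the group mean, in 6 of 6 pairs between weeks 10 and 14 and in 10 of 12 pairs of week 7 with a later week. With a block of diet and number edgeR gave 0 calls and 19 features at an unadjusted p under 0.05 (smallest adjusted p = 0.303), and limma-voom with an estimated correlation of these libraries gave 0 and 21 (0.225).

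miR-30a-5p kept its sign at all 3 weeks, at 0.96, 0.47 (SE 0.302) and 0.57 (SE 0.302) at weeks 7, 10 and 14, and its week 7 difference exceeded the later mean by 0.44 (SE 0.369; edgeR unadjusted p = 0.255). Unnamed miRNA 22 was likewise positive at each week, at 0.60, 0.57 and 0.34. miR-26b had 0.64 at week 7 and -0.35 at both later weeks. Its week 7 difference exceeded the later mean by 0.99 (SE 0.338; edgeR unadjusted p = 0.00904, adjusted p = 0.502). miR-21 had 0.45 at week 7 and -0.42 and -0.04 at weeks 10 and 14, a contrast of 0.69 (SE 0.312; edgeR unadjusted p = 0.0423, adjusted p = 0.507).

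Other miRNAs differed in sign between week 7 and a later week. miR-485-5p went from -0.93 at week 7 to -0.28 and then 0.90 at week 14, a contrast of -1.24 (SE 0.510; edgeR unadjusted p = 0.0265, adjusted p = 0.502). Unnamed miRNA 3 had -0.66, 0.09 and 0.29, a contrast of -0.85 (SE 0.267; edgeR unadjusted p = 0.00556, adjusted p = 0.502). miR-17-5p, at 0.04 at week 7, had -0.66 and -0.88 at the later weeks, a contrast of 0.81 (SE 0.318; edgeR unadjusted p = 0.0206, adjusted p = 0.502). miR-30b had 0.70 and 0.44 at weeks 7 and 10 and -1.51 (SE 0.503) at week 14. Unnamed miRNA 57 had -0.31, 0.45 and 0.82. These contrasts failed the adjusted threshold, so the weeks were not shown to differ for any of them.

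**Figure D5:**
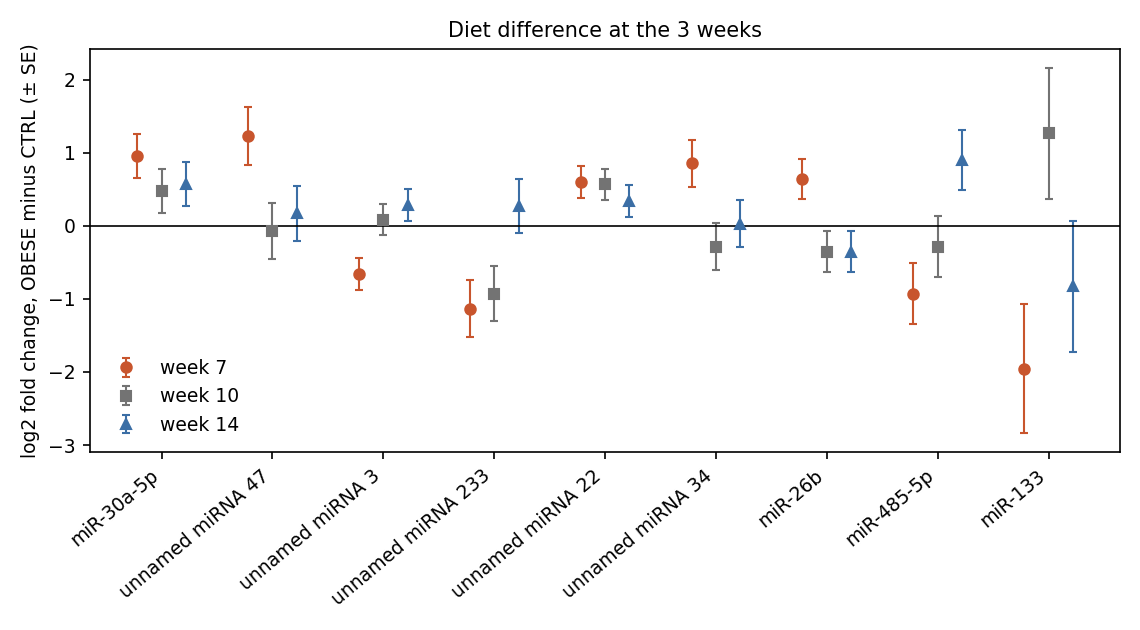
Log2 fold change between the diets (OBESE minus CTRL, ± SE) at weeks 7, 10 and 14 for the 9 features with an unadjusted edgeR p under 0.05 at week 7, which were picked on their week 7 values. miR-30a-5p and unnamed miRNA 22 lie above 0 at each week, and miR-26b lies at 0.64 at week 7 and at -0.35 at both later weeks.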

How the data were processed

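The authors deposited raw counts per miRNA, with whole-number totals that differ between libraries; the library protocol in the labels states deduplication by molecular identifiers (QIAseq kit, 76-nucleotide single reads on an AVITI instrument), but not whether the deposited counts are molecules or reads. Software in the submitters' processing notes comprises Bowtie 1.3.1, cutadapt 4.9 and DESeq2 1.42, with no step assigned to any. Build and multi-mapping rules were not given in the sources used here. All 107 named features matched a miRNA gene in the RefSeq table of ARS-UI_Ramb_v3.0, which served for names and chromosomes alone.

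The counts went into edgeR 4.0.16 under R 4.3.3. filterByExpr by group (minimum count 10, minimum total 15) kept 168 features; the 196 left out held 0.0311% to 0.0614% of a library's counts. After TMM scaling, 1 quasi-likelihood model was fitted to all 18 libraries in 6 groups (12 residual degrees of freedom), and the diet contrast at week 7 and its difference from the mean of weeks 10 and 14 were tested two-sided with Benjamini-Hochberg adjustment at 0.05. SE was derived from the F statistic of each test, and is approximate near 0 counts. CPM was computed here from the deposited counts. Library measures were compared by exact permutation, which cannot go below 0.1 here. Features expected at equal depth come from the hypergeometric formula.

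Named features are the 10 most abundant, the 15 smallest p at week 7, named miRNAs whose groups do not overlap, all tested members of lists of up to 4 or the 4 smallest p of longer lists, and the 5 smallest p against later weeks; not each is described. The lists, tests and named rule were chosen with earlier results of these data known. Alternatives were DESeq2 1.42.0, limma 3.58.1 (voom), other scalings and filters, a replicate block, the week 7 libraries alone and leaving out single libraries. The edgeR step was tested on simulated data.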

Additional observations from a re-analysis of the deposited data

How the results depend on the processing

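No setting gave a call at week 7 or in the contrast against later weeks. Replicate numbers were not taken as pairs, since same-numbered CTRL and OBESE libraries of week 7 correlated at 0.0604 to 0.228 in their deviations from the group mean, not all over 0.1, although each of the 6 was closest to its own number; the replicate block gave 0 calls and 15 features at an unadjusted p under 0.05, in place of 9. That number was also 15 with DESeq2, 18 without the filter, 4 among the named miRNAs alone, 5 without both libraries with a TMM factor under 0.75 (chosen after seeing the data) and 7 to 17 with 1 library left out. Without the filter 24 of 364 features did not overlap, in place of 15 of 168. The diet difference in the share of miR-16b was -3.92 to 1.07 percentage points with 1 library left out, positive without CTRL replicate 1.

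Of 542 refits of the 33 features whose fold changes were followed, 531 kept the sign. With 1 library left out, log2 fold changes ranged from -0.62 to 0.14 for miR-25, -2.06 to 0.32 for miR-323a-3p, -0.11 to 1.44 for miR-150 and -0.056 to 0.14 for miR-17-5p. Without both low-TMM libraries the first 3 were 0.15, 0.33 and -0.072. miR-17-5p was -0.0070 with at least 50 counts in 3 libraries, and without TMM let-7i was 0.13 and unnamed miRNA 17 was 0.038. The causes were not tested. Depth limits features near 3 counts a library.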

Other observations

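Of the 364 features, 158 had a count in all 6 week 7 libraries and 32 in none. At least 1 OBESE library but no CTRL library held a count of 30 features, 12 of them with a miRNA name, and none of the 30 summed to more than 16 counts. The reverse held for 15 features, 2 of them named, with at most 6 counts. Present in all 3 OBESE and no CTRL libraries were 2 features, and 0 showed the reverse. Most of the 12 named features belong to the DLK1-DIO3 locus, which also holds 59 of all 107 named features. Of these 59, 45 had too few counts to test, so the locus is common among named features of low count. Several of its members among the 12 had counts in OBESE replicate 3 alone, the library with the most counts of the 6. The part of depth in these numbers was not tested.

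Unnamed miRNA 111 stood at 0, 5.23 and 9.27 CPM in CTRL and 1.31, 0 and 0 CPM in OBESE libraries at week 7, near or below the floor, and was among the features with the smallest p at that week (edgeR unadjusted p = 0.0887).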
